A study of Mus musculus with 4 samples.

Results

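The nuclear pore and nuclear transport genes were read in the small intestine of CFLARs Tg mice beside that of wild-type mice. The genes were chosen by symbol: Nup, Xpo, Ipo or Tnpo followed by a digit, symbols that start with Kpna or Kpnb, and a fixed set of further names such as Ran, Rangap1, Ranbp2, Cse1l and Sec13. Where a gene had several probe sets, the one with the highest average signal stood for it. By this rule 55 genes were found among the 19938 genes that had a probe set with a single symbol. Of these, 53 lay above the filter on low values, which left out the lowest 30% of genes (a mean log2 value under 7.48), and Kpna7 and Nup62cl did not. Nup35, Nutf2 and Tpr were not analysed here. The choice of this gene family was made with the comparison of the genotypes already known, so counts and adjusted p-values below describe the members and do not test them as a list.

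The series belongs to a study of necroptosis in the intestinal epithelium and ileitis of preterm mice. CFLARs is the short form of cFLIP, the regulator of caspase-8 that the gene Cflar encodes. Both groups were C57BL/6 mice, with 2 arrays of total small intestinal RNA each: the CFLARs Tg arrays are titled XCFX and XCFY, and the wild-type arrays, which carry no transgene by their labels, are titled XX and XY. Not given in the sources used here were the promoter and copy number of the transgene, the age of the mice, the stretch of intestine and the number of animals behind an array. The last letter of a title is read as a sex type: Xist, the RNA of the inactive X chromosome, read 6.62 in XCFY and 6.78 in XY, but 12.90 in XCFX and 12.92 in XX. Each genotype therefore holds 1 array of each sex type, and the spread between its arrays holds that difference too. Values of a genotype are given with the XX-type array before the XY-type array. Nothing in the labels says that the arrays came from separate animals, so p-values measure only how far these 4 samples spread, which may be technical.

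The 4 arrays had median log2 values between 8.31 and 8.33, and no pair of arrays shared more than 33 identical readings among 28856 probe sets. The 12 enterocyte markers lay above the background scale of 5.13 to 6.78, the range read for Xist in XY-type arrays and for genes of the Y chromosome in XX-type arrays. Lct, the lactase gene, read 12.57 and 11.03 in CFLARs Tg, against 13.27 and 13.32 in wild-type, and Sis, the sucrase-isomaltase gene, read 7.15 and 7.08 in CFLARs Tg, against 7.60 and 7.67 in wild-type and was below the filter. Cflar itself read 9.49 and 9.30 in CFLARs Tg, against 9.34 and 9.28 in wild-type, a difference of 0.08 (limma adjusted p = 0.498). Which stretch of the transgene its probe set matches is not known here, so this reading checks no genotype label.

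The nuclear pore is a ring-shaped channel through the nuclear envelope, built from many copies of the nucleoporins. Large cargo passes it bound to carriers of the karyopherin family: importins bring proteins with a nuclear localisation signal in, and exportins carry proteins and RNA out. Direction comes from the small GTPase Ran, which is loaded with GTP on chromatin and made to hydrolyse it in the cytoplasm. Dividing cells take the envelope apart and rebuild it at each mitosis, and intestinal epithelium divides mainly in the crypts.

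Most of these genes read higher in CFLARs Tg intestine, by small amounts. Of the 53 fitted members, 51 had a difference above 0, against 47.6% of the 13956 genes fitted, and the median difference of the members was 0.31 on the log2 scale, against -0.01 for the genes fitted. Both CFLARs Tg arrays lay above both wild-type arrays in 49 members (32.0% of genes fitted) and below them in 2, Ipo8 and Xpo7 (37.6% of genes fitted). In the fit across all genes 17 members rose and 0 fell (limma, Benjamini-Hochberg adjusted p under 0.05), where 8.44% of genes fitted rose and 10.9% fell. An unadjusted p under 0.05 was found for 39 members, and in either direction for 5457 of the 13956 genes fitted (limma). In bulk tissue, fewer or more cells of a type and less or more RNA per cell cannot be told apart. The 17 rises ran from 1.20-fold for Rcc1 to 1.54-fold for Ran.

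Single arrays moved this count by more than 1.5 times. Without CFLARs Tg replicate 1 (XCFX) or 2 (XCFY), the wild-type arrays alone gave the spread. More members then rose, but so did more of all genes fitted. With XX or XY (wild-type replicate 1 or 2) left out, the CFLARs Tg arrays alone gave the spread and 0 members passed (limma), while 16 and 19 of them read higher with an unadjusted p under 0.05. The median difference of the members was 0.38 and 0.22 without the CFLARs Tg arrays in turn, and 0.29 and 0.32 without the wild-type arrays. When limma's treat asked for a difference beyond 0.5 on the log2 scale, 0 members passed and 0 had an unadjusted p under 0.05.

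**Figure D1:**
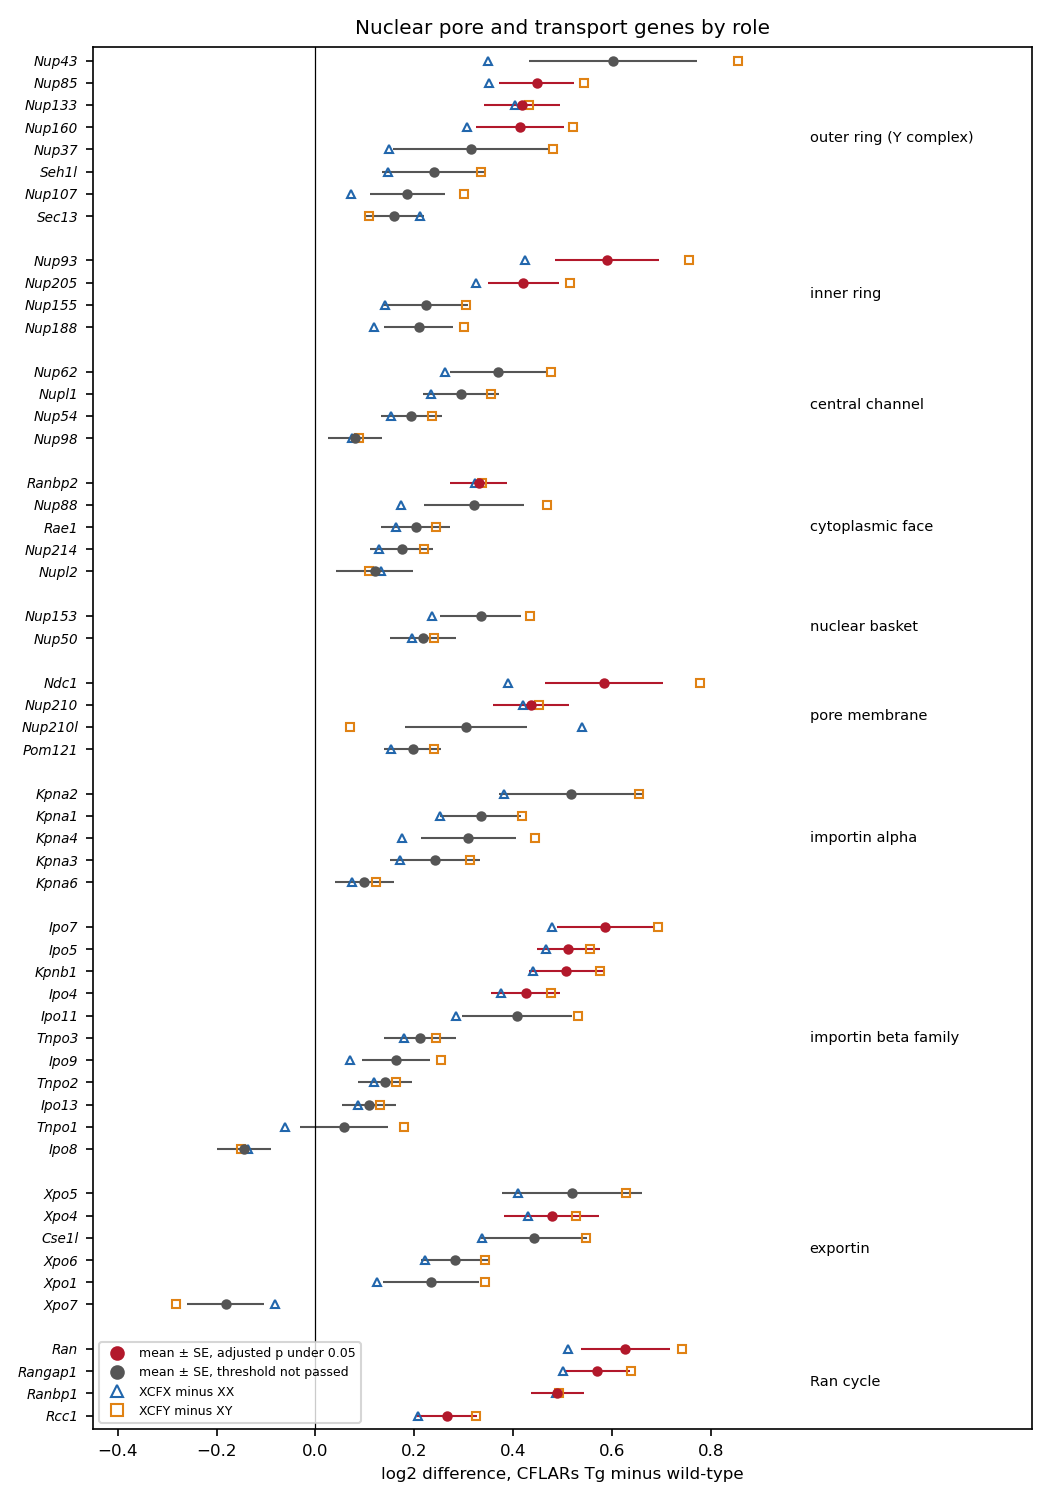
Log2 difference of each fitted member, CFLARs Tg minus wild-type, grouped by role. Filled circles are means with the moderated standard error (2 arrays a genotype), red where the limma adjusted p was under 0.05; triangles and squares are the differences of the XX-type and XY-type pairs. Of 53 members 51 have their mean to the right of 0, and Ipo8 and Xpo7 lie to the left.

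In the Ran cycle 4 of 4 fitted members rose (8.44% of genes fitted), with a median difference of 0.53, the highest median among the roles. Counts by role, here and below, were not tested against the share of genes fitted. Ran, the GTPase itself, read 10.45 and 10.67 in CFLARs Tg, against 9.94 and 9.93 in wild-type. The CFLARs Tg arrays lay apart from each other but both well above the wild-type pair, which nearly coincided. The difference was 0.63 (SE 0.09, limma adjusted p = 0.0231), a 1.54-fold rise. Rangap1, which makes Ran hydrolyse GTP at the cytoplasmic face, read 10.29 and 10.42 in CFLARs Tg, against 9.79 and 9.78 in wild-type (difference 0.57, SE 0.07).

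Ranbp1, a cofactor of that hydrolysis, read 12.39 and 12.41 in CFLARs Tg, against 11.90 and 11.91 in wild-type. Here the arrays of each genotype nearly coincided, and the difference of 0.49 (SE 0.05) had the lowest adjusted p among the members, 0.0179. Rcc1, the chromatin-bound exchange factor that loads Ran with GTP, read 9.54 and 9.61 in CFLARs Tg, against 9.33 and 9.29 in wild-type, a 1.20-fold rise at adjusted p = 0.0472. The call of Rcc1 was lost without a filter and with sex type as a block (limma adjusted p = 0.0587 and 0.0681).

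Since the called members moved in the same direction, their promoter windows (250 bases before to 50 after the RefSeq start, build GRCm38.p6) were searched for short motifs chosen with the results known. A window was found for 45 of the 55 members and for 15 of the 17 called ones, and motifs were counted per gene on both strands. The E-box CACGTG, a site that Myc and USF proteins can bind, was in the windows of 8 of 45 members (17.8%) and of 5 of the 15 called ones. It was in those of 11.3% of 11046 fitted genes with a window and of 8.09% of all 27025 genes with a window. For the GC box GGGCGG the shares were 71.1% of members and 66.3% of fitted genes (38.2% of all genes with a window). For CCAAT they were 48.9% and 41.9% (41.1%), and for the ETS motif CCGGAAG 17.8% and 17.6% (9.93%). Of the 15 called members 11 held the GC box, 4 CCAAT and 1 the ETS motif. A match is a run of letters, and whether a factor binds there was not tested. The 5 called members with an E-box are shown 5′ to 3′ with the E-box in capitals. It starts 118 bases before the start site in Ran, 137 in Ipo7, 175 in Nup93 and 87 in Ranbp2, and at base 15 after the start in Ipo4. In Nup93 the last base of the E-box is shared with a GC box. Nup93 has 2 windows, and only the 1 shown holds the E-box.
Ran, chr5:129019906-129020205, plus strand: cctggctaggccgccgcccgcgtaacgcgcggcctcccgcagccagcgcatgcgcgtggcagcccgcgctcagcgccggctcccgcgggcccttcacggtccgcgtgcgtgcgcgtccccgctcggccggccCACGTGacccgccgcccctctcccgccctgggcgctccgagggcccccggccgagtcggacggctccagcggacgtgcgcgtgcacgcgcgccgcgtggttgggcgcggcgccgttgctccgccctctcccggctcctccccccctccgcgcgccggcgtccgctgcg
Ipo7, chr7:110018065-110018364, plus strand: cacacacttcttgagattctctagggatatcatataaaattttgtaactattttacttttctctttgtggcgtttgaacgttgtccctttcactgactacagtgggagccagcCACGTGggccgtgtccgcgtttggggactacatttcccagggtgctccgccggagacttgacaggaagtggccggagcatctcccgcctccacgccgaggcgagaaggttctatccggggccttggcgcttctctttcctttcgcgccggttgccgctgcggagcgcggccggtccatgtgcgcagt
Ipo4, chr14:55635635-55635934, minus strand: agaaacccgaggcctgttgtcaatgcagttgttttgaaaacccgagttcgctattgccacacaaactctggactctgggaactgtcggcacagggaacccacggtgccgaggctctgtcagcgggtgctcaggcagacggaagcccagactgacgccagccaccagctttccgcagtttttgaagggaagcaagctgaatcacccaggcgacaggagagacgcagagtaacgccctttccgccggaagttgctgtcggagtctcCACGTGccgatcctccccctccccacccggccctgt
Nup93, chr8:94214314-94214613, plus strand: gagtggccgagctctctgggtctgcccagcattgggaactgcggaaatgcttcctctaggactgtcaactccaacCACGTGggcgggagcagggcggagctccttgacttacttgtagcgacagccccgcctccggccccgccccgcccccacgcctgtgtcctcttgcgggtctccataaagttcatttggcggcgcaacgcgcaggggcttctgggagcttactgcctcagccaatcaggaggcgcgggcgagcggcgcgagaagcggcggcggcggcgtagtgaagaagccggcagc
Ranbp2, chr10:58446602-58446901, plus strand: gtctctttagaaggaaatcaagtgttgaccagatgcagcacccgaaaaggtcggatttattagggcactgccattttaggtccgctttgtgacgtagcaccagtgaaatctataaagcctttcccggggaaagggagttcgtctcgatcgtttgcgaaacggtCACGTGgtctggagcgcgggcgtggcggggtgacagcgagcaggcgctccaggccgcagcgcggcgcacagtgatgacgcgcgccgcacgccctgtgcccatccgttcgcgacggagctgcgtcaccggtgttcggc

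The promoter window of Ranbp1 overlaps that of a gene on the other strand, Trmt2a, which encodes a tRNA methyltransferase. The Ranbp1 window holds no E-box, and its CCAAT box, in capitals, starts 72 bases before the start site.
Ranbp1, chr16:18248645-18248944, minus strand: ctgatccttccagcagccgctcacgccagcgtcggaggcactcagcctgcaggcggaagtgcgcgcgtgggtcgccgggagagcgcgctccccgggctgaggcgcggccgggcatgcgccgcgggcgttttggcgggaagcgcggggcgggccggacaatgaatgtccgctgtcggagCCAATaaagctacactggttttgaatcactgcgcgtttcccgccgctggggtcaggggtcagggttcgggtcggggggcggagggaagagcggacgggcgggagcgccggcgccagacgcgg
Trmt2a read 9.55 and 9.67 in CFLARs Tg, against 9.31 and 9.33 in wild-type, a rise of 0.29 (limma adjusted p = 0.0464). Besides Trmt2a, 6 other fitted genes had an opposite-strand window over that of a member, and none of the 6 passed (limma). Polh, Parpbp, Pgap2 and Atf5, beside Xpo5, Nup37, Nup98 and Nup62, differed by 0.16, 0.23, 0.12 and 0.10. Those of Nup188 (Dolk) and Nup88 (Rpain) read lower in both CFLARs Tg arrays, with differences of -0.15 and -0.15, while the members beside them differed by 0.21 and 0.32.

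Among the importin beta family, the carriers that dock at the pore, 4 of 11 fitted members rose and 0 fell (8.44% and 10.9% of genes fitted). The median difference was 0.21. Kpnb1, which carries cargo together with an importin alpha adaptor, read 11.31 and 11.46 in CFLARs Tg, against 10.87 and 10.89 in wild-type (difference 0.51, SE 0.08, limma adjusted p = 0.0239). Ipo7, which imports ribosomal proteins and histone H1, had the largest difference of the family. It read 10.94 and 11.19 in CFLARs Tg, against 10.47 and 10.50 in wild-type (difference 0.59, SE 0.10, limma adjusted p = 0.0279).

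Ipo5, also an importer of ribosomal proteins, read 11.00 and 11.10 in CFLARs Tg, against 10.53 and 10.55 in wild-type, and Ipo4, which imports histones, 10.19 and 10.32 in CFLARs Tg, against 9.81 and 9.84 in wild-type. In each of these 4 genes the 2 genotypes were clearly apart, and the XCFY array was the higher of the CFLARs Tg pair. Ipo11, a carrier of ubiquitin-conjugating enzymes, differed by 0.41 without passing (adjusted p = 0.0663). In the following 4 carriers both CFLARs Tg arrays also lay above both wild-type arrays. Tnpo3, the importer of serine and arginine rich splicing factors, differed by 0.21, Ipo9, an importer of histones, by 0.16, Tnpo2, a close relative of Tnpo1, by 0.14 and Ipo13, which works in both directions, by 0.11, and none of them passed.

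Tnpo1, the classical importer of hnRNP A1, read 11.54 and 11.75 in CFLARs Tg, against 11.60 and 11.57 in wild-type. Its XCFX reading lay below both wild-type readings and its XCFY reading above them, so the groups overlap. Ipo8, a close relative of Ipo7 that also binds Argonaute proteins, went the other way and read 10.14 and 10.15 in CFLARs Tg, against 10.28 and 10.30 in wild-type, a difference of -0.14 that did not pass (SE 0.05, adjusted p = 0.128).

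Of the importin alpha adaptors, which recognise the classical localisation signal, 0 of 5 fitted members passed and 4 had an unadjusted p under 0.05 (limma). Kpna2 read 11.82 and 12.22 in CFLARs Tg, against 11.44 and 11.56 in wild-type. Both CFLARs Tg arrays lay above wild-type but far apart from each other, and the difference of 0.52 had an SE of 0.15 (adjusted p = 0.0702). Its other 2 probe sets differed by 0.51 and 0.54, and the mouse annotation also lists a Kpna2 pseudogene, which the probe sets were not tested against. A block for sex type brought Kpna2 past the threshold (limma adjusted p = 0.0226). With 1 array left out, the Kpna2 difference was 0.72 without XCFX, 0.32 without XCFY, 0.46 without XX and 0.58 without XY.

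Kpna1 differed by 0.33 (adjusted p = 0.0533), Kpna4 by 0.31, Kpna3 by 0.24 and Kpna6 by 0.10. Kpna7, an adaptor of the egg and early embryo, lay just above the background scale and read 7.06 and 7.04 in CFLARs Tg, against 6.99 and 7.02 in wild-type. It was left out of the fit.

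Of the 6 fitted exportins 1 rose and 0 fell (8.44% and 10.9% of genes fitted), with a median difference of 0.36. Xpo4, which carries eIF5A and Smad3, read 10.28 and 10.50 in CFLARs Tg, against 9.85 and 9.97 in wild-type (difference 0.48, SE 0.10, limma adjusted p = 0.0368). Xpo5, the exporter of precursor microRNAs, read 9.71 and 10.08 in CFLARs Tg, against 9.30 and 9.45 in wild-type, a difference of 0.52 (adjusted p = 0.0664), and Cse1l, which returns importin alpha to the cytoplasm, read 11.82 and 12.09 in CFLARs Tg, against 11.48 and 11.54 in wild-type (difference 0.44, adjusted p = 0.0524). Neither of the last 2 passed, although all CFLARs Tg readings of both lay above all wild-type readings.

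Xpo1, the main exporter of proteins with a leucine-rich signal, read 10.70 and 10.94 in CFLARs Tg, against 10.57 and 10.60 in wild-type. That is a difference of 0.23 (SE 0.10, adjusted p = 0.153). With 1 array left out, the Xpo1 difference was 0.36 without XCFX, 0.11 without XCFY, 0.22 without XX and 0.25 without XY. Xpo6, an exporter of actin and profilin, differed by 0.28 (adjusted p = 0.0527). Xpo7 read 10.74 and 10.57 in CFLARs Tg, against 10.82 and 10.85 in wild-type, the lowest difference of the 53 members at -0.18 (adjusted p = 0.161), and its XCFY reading was the further of the 2 from wild-type.

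**Figure D2:**
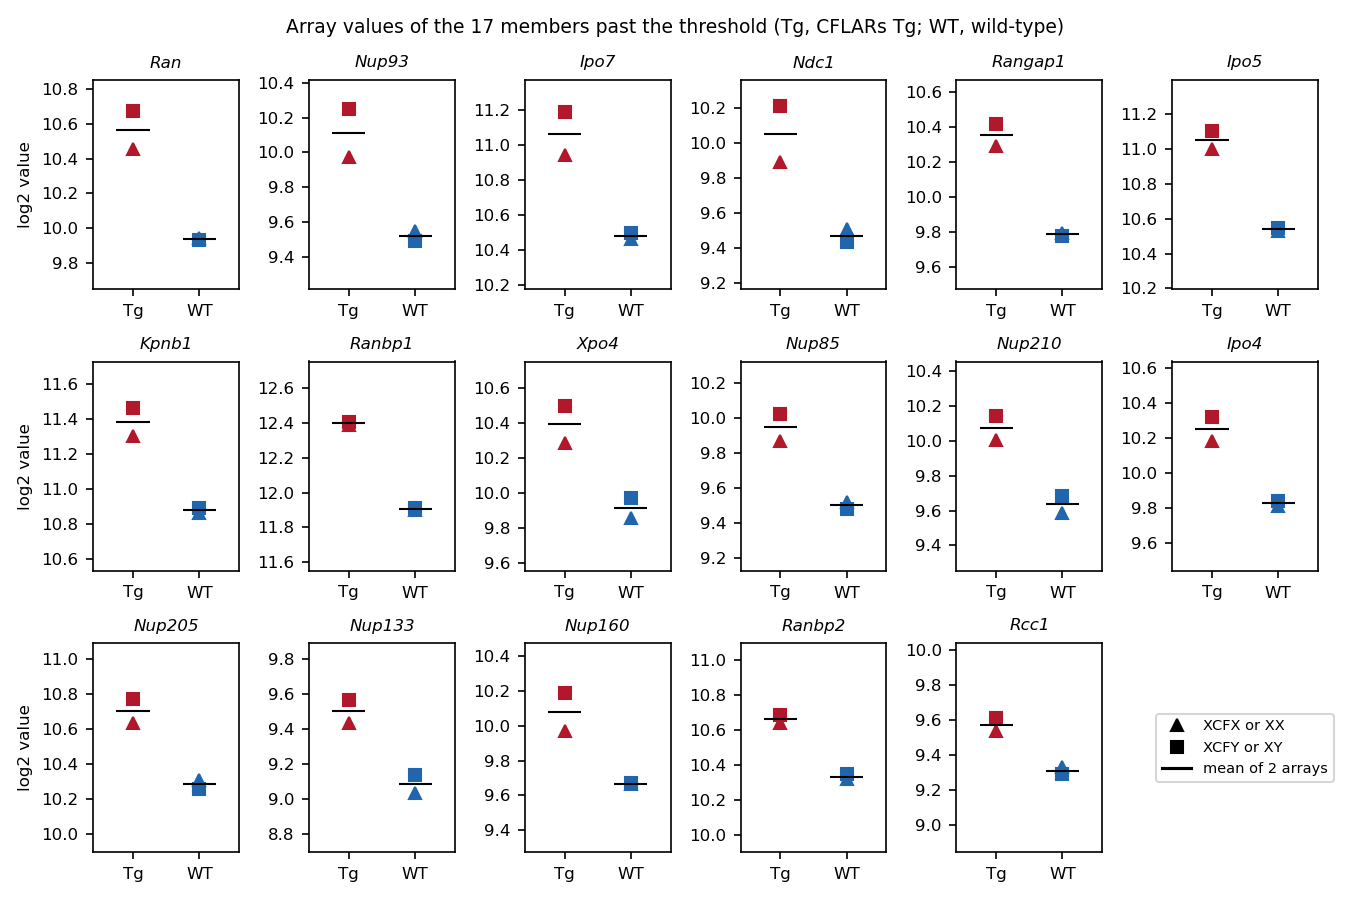
Log2 values of the 17 members past the threshold in each array, CFLARs Tg (Tg) on the left and wild-type (WT) on the right of each panel, with the mean of 2 arrays as a line. All panels span the same range of log2 units. In each panel both CFLARs Tg arrays lie above both wild-type arrays, and in Ranbp1 the 2 CFLARs Tg arrays nearly coincide at 12.39 and 12.41.

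In the outer ring, the Y-shaped complex that coats the membrane, 3 of 8 fitted members rose and 0 fell (8.44% and 10.9% of genes fitted). The median difference was 0.36. Nup85 read 9.87 and 10.03 in CFLARs Tg, against 9.52 and 9.48 in wild-type, Nup133 9.44 and 9.57 in CFLARs Tg, against 9.03 and 9.14 in wild-type and Nup160 9.97 and 10.19 in CFLARs Tg, against 9.66 and 9.67 in wild-type. Their differences were 0.45, 0.42 and 0.41, with adjusted p-values of 0.0281, 0.0324 and 0.0424 (limma).

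Nup43 had the second largest difference of the members at 0.60 but did not pass (adjusted p = 0.0704). It read 9.34 and 9.83 in CFLARs Tg, against 8.99 and 8.98 in wild-type, so that the XCFY reading lay 0.85 above XY and the XCFX reading 0.35 above XX. The remaining members of the ring, Nup37, Seh1l, Nup107 and Sec13, which also serves in vesicle coats of the secretory pathway, differed by 0.31, 0.24, 0.19 and 0.16. None of these 4 passed.

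In the inner ring, which anchors the channel, 2 of 4 fitted members rose (8.44% of genes fitted). Nup93 read 9.97 and 10.25 in CFLARs Tg, against 9.55 and 9.49 in wild-type, a 1.51-fold rise (SE 0.11 on the log2 scale, limma adjusted p = 0.0308), and its partner Nup205 10.64 and 10.77 in CFLARs Tg, against 10.31 and 10.26 in wild-type, a 1.34-fold rise (adjusted p = 0.0293). Nup155 and Nup188 differed by 0.22 and 0.21 without passing.

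Of the pore membrane proteins, 2 of 4 rose (8.44% of genes fitted). Ndc1, which ties the scaffold to the membrane, read 9.89 and 10.21 in CFLARs Tg, against 9.51 and 9.43 in wild-type (difference 0.58, adjusted p = 0.0384), and Nup210 read 10.01 and 10.14 in CFLARs Tg, against 9.59 and 9.69 in wild-type (difference 0.44, adjusted p = 0.0302). Pom121, a membrane-spanning anchor of the pore, differed by 0.20 (adjusted p = 0.0768). Nup210l, a relative of Nup210 known from testis, was the one member of the pore membrane whose XCFX reading exceeded XCFY: it read 8.57 and 8.29 in CFLARs Tg, against 8.03 and 8.22 in wild-type. Its other 8 probe sets read between 6.49 and 7.71 and differed by 0.09 to 0.40.

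In the central channel, whose FG repeats form the barrier, 0 of 4 fitted members passed (limma). Of these, 3 had an unadjusted p under 0.05, against 5457 of the 13956 genes fitted (limma). Nup62 read 10.44 and 10.69 in CFLARs Tg, against 10.18 and 10.21 in wild-type (difference 0.37, adjusted p = 0.0623). Nupl1, the partner of Nup62, differed by 0.29, Nup54 by 0.19 and Nup98, which binds RNA export factors, by 0.08. Nup62cl, a relative of Nup62 on the X chromosome, read 6.99 and 7.42 in CFLARs Tg, against 6.74 and 6.81 in wild-type. It was below the filter, and its wild-type mean of 6.77 lay within the background scale of 5.13 to 6.78.

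At the cytoplasmic face 1 of 5 fitted members rose (8.44% of genes fitted). Ranbp2, the large protein of the cytoplasmic filaments that binds Ran and SUMO-modified Rangap1, read 10.64 and 10.69 in CFLARs Tg, against 10.32 and 10.35 in wild-type (difference 0.33, SE 0.06, limma adjusted p = 0.0295). Nup88, Rae1, Nup214 and Nupl2 differed by 0.32, 0.20, 0.17 and 0.12 and did not pass. Nup88 and Nup214 form a complex there, and Rae1 binds Nup98 and mRNA. In Nupl2 the XCFX reading and the XY reading were level at 8.46, so the groups were not apart. The second probe set of Rae1 differed by 0.26. On the nuclear side, the basket members Nup153 and Nup50, a partner of Nup153 that helps release imported cargo, differed by 0.33 and 0.22 (adjusted p = 0.0537 and 0.0826, limma). Neither passed, and both had an unadjusted p under 0.05 (limma), as did 5457 of the 13956 genes fitted.

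Just inside the threshold lay Nup160 and Rcc1 (limma adjusted p = 0.0424 and 0.0472), and just outside Cse1l, Xpo6, Kpna1 and Nup153 (adjusted p from 0.0524 to 0.0537). Cse1l, with a difference of 0.44, was outside, and Rcc1, with 0.27 and closer replicates, was inside.

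Most members differed more in the XY-type pair. The members' median was 0.35 for XCFY minus XY and 0.22 for XCFX minus XX, and 48 of 53 members had the higher value in the XY-type pair, against 53.5% of genes fitted. With 1 array of each genotype in a pair this has no test. Within CFLARs Tg, XCFY read above XCFX in 50 members, with a median gap of 0.16 in either direction. The wild-type arrays differed by a median of 0.03, and XY read above XX in 35 members. Over the genes fitted the median gaps were 0.11 in CFLARs Tg and 0.05 in wild-type, and XY read above XX in 6367 of 13956. Across the 53 members the 2 pair differences, which share no array, had a Pearson r of 0.76 and a Spearman rho of 0.76, against 0.83 and 0.77 across the genes fitted. These are correlations over genes of the same 4 arrays, and genes are not independent replicates.

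Sex type itself was compared in a fit with genotype as a second term, a contrast that the choice of members did not use. No member passed for XY-type minus XX-type (0 of 53, limma, lowest adjusted p = 0.961), and 3 had an unadjusted p under 0.05. Over the genes fitted 5 passed (0.0358%), 4 of which were Xist and the Y-linked Eif2s3y, Kdm5d and Uty, and 3.73% had an unadjusted p under 0.05. The members' sex-type differences ran from -0.07 to 0.27 and 50 of 53 were above 0, against 49.3% of genes fitted. This count includes the XCFY reading given above.

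**Figure D3:**
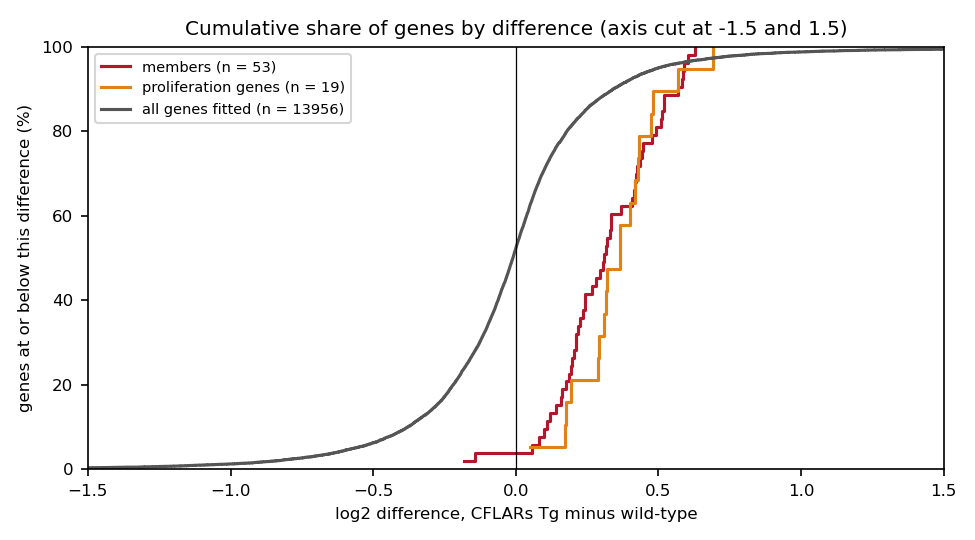
Cumulative share of genes (percent) by log2 difference, CFLARs Tg minus wild-type, for the 53 members, 19 proliferation genes and the 13956 genes fitted. The curves of members and of proliferation genes lie to the right of that of all genes, with medians of 0.31 and 0.37 against -0.01.

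Of 19 fitted markers of dividing cells 5 rose and 0 fell (8.44% and 10.9% of genes fitted). All 19 markers read higher in CFLARs Tg (47.6% of genes fitted), and their median difference was 0.37. Their summed signal, on the linear scale over the markers on the array, was 36155 in XCFX and 43854 in XCFY, against 31436 in XX and 32164 in XY. That of the 55 transport members was 84022 and 93710 in CFLARs Tg, against 70926 and 72068 in wild-type. The array highest in the members, XCFY, was also the highest in this marker list. Rrm2, a subunit of ribonucleotide reductase, differed by 0.69, the replication helicase subunits Mcm3 and Mcm5 by 0.57 and 0.47, and Top2a, the topoisomerase of dividing cells, by 0.48 (limma adjusted p from 0.025 to 0.0496). The fifth, Birc5, the gene of the mitotic protein survivin, differed by 0.37 (limma adjusted p = 0.0432). Their part in the members' difference was not tested.

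The marker lists of other cells differed in how many genes passed. Of the genes fitted 8.44% rose and 10.9% fell, and 5457 of 13956 had an unadjusted p under 0.05 (limma). Neutrophil genes rose in 7 of 9 fitted markers, with summed signals of 4705 and 10049 in CFLARs Tg, against 2456 and 2564 in wild-type. Of 14 on the array 4 had wild-type means within the background scale. The filter took the mean over all 4 arrays, so markers such as Cxcr2, S100a8 and S100a9 were fitted only through their CFLARs Tg readings. Their wild-type means were 6.71, 6.74 and 7.25, under the limit of 7.48. The count of 7 is therefore partly set by the filter. Of the markers not fitted, Elane, Camp and Mpo differed by 0.07, -0.03 and 0.29, and Retnlg and Mmp8 by 2.03 and 2.13. Monocyte and macrophage markers passed in 0 of 13 (limma), 6 with an unadjusted p under 0.05, with sums of 9784 and 13231 in CFLARs Tg, against 8485 and 8686 in wild-type. Enterocyte markers read lower in 11 of 11 fitted genes, of which 1, the peptide transporter gene Slc15a1, fell, and their sums were 101175 and 73596 in CFLARs Tg, against 119354 and 119974 in wild-type. Smooth muscle markers passed in 0 of 9 (limma; 3 with an unadjusted p under 0.05), T and B lymphocyte markers in 0 of 2 (limma; 0 with an unadjusted p under 0.05), and of 11 fibroblast and endothelial markers 1, the endothelial receptor gene Kdr, fell by 0.30. XCFY was also the array furthest from wild-type in the neutrophil, macrophage and enterocyte sums. The part of these cells in the members' difference was not tested.

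Other genes of nuclear transport and of the nuclear envelope and lamina, outside the symbol rule, came from 4 further lists. Over 52 fitted genes of these lists 7 rose and 1 fell, where 8.44% of genes fitted rose and 10.9% fell. The median difference of the 52 was 0.09, where the members had 0.31. Of 20 mRNA export genes 1 rose and 0 fell, with a median of 0.08: Ddx39a, an RNA helicase of the export machinery, read 9.46 and 9.75 in CFLARs Tg, against 8.77 and 8.83 in wild-type (difference 0.80, limma adjusted p = 0.0214), and Alyref, the adaptor that recruits the mRNA exporter, differed by 0.43 (adjusted p = 0.0572). Of 13 other transport factors 3 rose and 0 fell: Xpot, the tRNA exporter, by 0.41, Rcc2 by 0.39 and the SUMO protease Senp1 by 0.34. Of 5 other pore components 1, the pore-associated protease Senp2, rose by 0.29.

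In the nuclear envelope and lamina list 2 of 14 fitted genes rose and 1 fell (8.44% and 10.9% of genes fitted), with a median of 0.09. The lamin genes Lmna and Lmnb1 rose by 0.55 and 0.34, and Syne3, a linker of the envelope to the cytoskeleton, read 8.13 and 8.02 in CFLARs Tg, against 8.56 and 8.48 in wild-type, a difference of -0.45 (limma adjusted p = 0.025). Lbr, the lamin B receptor, differed by 0.42 (adjusted p = 0.0687). Whether these lists differ from the members was not tested.

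**Figure D4:**
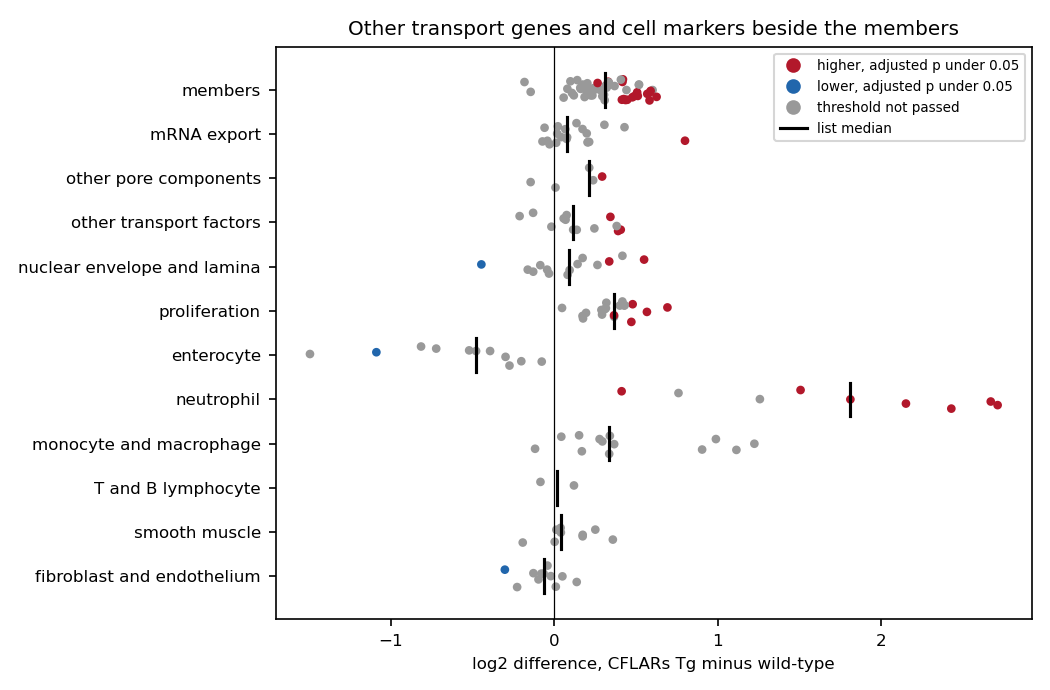
Log2 difference, CFLARs Tg minus wild-type, of each fitted gene in the members, 4 further transport and envelope lists and 7 marker lists. Points are spread vertically for legibility, and vertical bars are list medians. Red and blue points passed the limma threshold as higher and lower. Members centre on 0.31 and proliferation genes on 0.37, mRNA export genes on 0.08, and enterocyte markers on -0.48.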

How the data were processed

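Total RNA of mouse small intestine was labelled with biotin by the Affymetrix protocol and read on 4 arrays, per the labels' protocols. The authors deposited log2 expression values per probe set. Not given in the sources used here are their background correction, summarisation and normalization. The log2 values were used as deposited. Names came from the platform annotation: 21789 of 28856 probe sets had 1 symbol, 1621 several and 5446 none, and the GRCm38.p6 gene table held 21698 of the identifiers and changed 0 symbols. Only single-symbol probe sets were named.

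The highest-mean probe set stood for each of 19938 genes, the lowest 30% were left out, and 13956 genes were fitted with limma 3.58.1 in R 4.3.3 (lmFit and eBayes, 2 residual and 2.64 prior degrees of freedom). p-values were Benjamini-Hochberg adjusted over all genes fitted at a threshold of 0.05. Sex type, read from the titles, entered a second fit. The code was tested on simulated data. The number of arrays limits the precision.

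Members and lists were chosen with earlier results of these data known. Every member may be named, with array values for the 10 largest rises and for Ran, Kpnb1, Xpo1 and Kpna2. Further members' array values, the promoter partners, Sis, Birc5 and the unfitted neutrophil markers were chosen after their values were seen. Of other lists up to 4 fitted genes with the largest difference are named. Promoters are RefSeq windows of build GRCm38.p6. Other filters, probe set rules, normalizations, a block, a variance trend, a minimum difference and left-out arrays were tried.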

Additional observations from a re-analysis of the deposited data

Results flagged for a closer look

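Tnpo1 was the one member, of 53 fitted, whose 2 pair differences had opposite signs: 0.18 for XCFY minus XY and -0.0624 for XCFX minus XX on the log2 scale. Each pair holds 1 array of each genotype, so this difference between sex types was not tested.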

How the results depend on the processing

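The count of 17 members past the threshold, with 16 to 21 in each case higher and 0 lower, held without a filter (16), with the lowest 50% of genes left out (18), with the median of a gene's probe sets (17), after quantile normalization (20) or median centring (21), with a variance trend (17) and with symbols that end in their number (17). Of all genes fitted 5.31% rose without a filter, and 8.44% to 10.1% under the other settings just named. With sex type as a block (the pairing comes from the titles) 24 members rose, where 10.1% of genes fitted rose. Of these members 16 were among the 17, and Rcc1 was lost (limma adjusted p = 0.0681). The members gained were Xpo5, Kpna2, Cse1l, Nup43, Ipo11, Nup62, Kpna1 and Nup153 (adjusted p from 0.0190 to 0.0480 with the block). Deviations of same sex-type arrays from their genotype means had a correlation of 0.01 over 13532 genes. These are the genes not assigned to the X, Y or mitochondrial chromosome, some with no chromosome given. Leaving out 1 array moved the count of members between 0 and 44 and that of genes between 40 and 6559, where 2695 passed with 4 arrays. Those without a wild-type array were the low ones. When 1 array of a genotype is left, it is assumed to vary like the other genotype. Against a minimum difference of 0.5, 0 members and 63 genes passed. The median member difference stayed between 0.22 and 0.38 under every setting run. For sex type, 0 members passed under the 6 settings tried, and 2 genes rather than 5 passed with the lowest 50% of genes left out, a setting that drops genes. Among the 17 members that rose, Kpna2 and Xpo1, no difference changed sign under a setting run. Without XCFY the members with a higher reading were 50 rather than 51, as Tnpo1 then read lower.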
